A study of Mus musculus with 12 samples.

Results

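Toll-like receptors, their co-receptor Ly96 and their adaptor Myd88 were examined in mouse leukaemic cells as 9 genes picked by name: Tlr1, Tlr2, Tlr4, Tlr6, Tlr7, Tlr9, Tlr13, Myd88 and Ly96. All 9 were among the 41214 genes in the deposited count tables and among the 13822 genes with enough counts to be tested. The cells came from C57/BL6 NUP98-HOXD13 mice, which carry a fusion transgene that drives myelodysplasia and acute myeloid leukaemia, so every library in both groups has that transgene. The group called KD here was Gfi1 KD/KD (labelled homo on the RNA samples) and the group called KI was Gfi1 KI/wt (labelled het), with 2 mice of each. No treatment, age or tissue of origin is given in the labels, and they do not spell out how the KD and KI alleles were built. Gfi1 encodes a zinc finger repressor of blood cell genes.

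Toll-like receptors detect microbial molecules on monocytes, macrophages, dendritic cells and other immune cells. Receptors for lipids and lipoproteins sit at the cell surface, while receptors for nucleic acids signal from endosomes. Most of them pass their signal through the adaptor MyD88 to IRAK kinases, TRAF6 and the kinase TAK1, which activate NF-kB and, in endosomes, interferon regulatory factors. MyD88 serves the interleukin 1 family of receptors as well.

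All 9 genes had a higher fitted level in KD than in KI leukaemia, but for none of them did the difference pass the test against the spread between mice. Their log2 fold changes, KD over KI, ran between 0.20 for Tlr6 and 1.62 for Ly96, with a median of 0.73, beside a median of -0.06 and a share of 44.5% positive over all genes tested. In edgeR's quasi-likelihood test, adjusted over all genes by Benjamini-Hochberg at 0.05, 0 of the 9 passed, and 0 passed at an unadjusted p under 0.05. Over all genes the adjusted test called 0% higher and 0% lower, while the unadjusted threshold took in 1.29% higher and 8.34% lower. DESeq2 called 0 of the 9, beside 0.0362% of all genes higher and 1.01% lower. In 5 of the 9 both KD libraries lay above both KI libraries, beside 14.5% of all genes, and in 0 of the 9 both lay below, beside 23.5%. The p-values set the difference between the genotypes against the spread between the 2 mice of each genotype, a spread estimated in part from all genes.

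The RNA libraries held 4581593 to 11934542 counts on genes, the lowest being KI replicate 1, where 3 counts correspond to 0.696 CPM (counts scaled to the size of the library). KI replicate 1 also stood apart in that 88.3% of its uniquely aligned reads fell in no gene, against 63.2% to 68.3% in the other 3 libraries. Gfi1, the check of the labels, had 7.22 and 1.12 CPM in KD replicates 1 and 2, against 36.2 and 89.0 CPM in KI replicates 1 and 2. Whether transcripts of the altered alleles align to mouse Gfi1 is not known, which limits this check. The libraries numbered 1 and 2 also differ in sex-linked RNA. Xist had 0.425 and 846 CPM in KD replicates 1 and 2, against 13 and 785 CPM in KI replicates 1 and 2, while Y-linked Eif2s3y had 58.0 and 0.0864 CPM in KD and 83.7 and 0 CPM in KI. The replicate number therefore goes with sex-linked expression in both genotypes, and the 9 genes are also compared within each number. Values are CPM scaled by TMM. They are not divided by transcript length, so levels are compared between libraries and not between genes.

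Upstream sequence (RefSeq, GRCm38.p6) was matched by symbol for 6 of the 9 genes, in 8 windows. The windows shown are those of Myd88, Tlr9 and Tlr13, the 3 that lie wholly outside the annotated span of their own gene, because Gfi1, the gene varied in this study, encodes a DNA-binding repressor. Each is the 250 bases before the annotated start, and capitals mark AATC, the core of the GFI1 motif, or its reverse complement GATT.
Myd88, chr9:119340019-119340268, minus strand: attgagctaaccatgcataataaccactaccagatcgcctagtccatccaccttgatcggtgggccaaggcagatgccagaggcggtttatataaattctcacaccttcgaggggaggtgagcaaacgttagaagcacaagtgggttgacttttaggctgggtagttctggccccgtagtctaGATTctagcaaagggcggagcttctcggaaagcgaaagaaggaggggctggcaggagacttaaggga
Tlr9, chr9:106222348-106222597, plus strand: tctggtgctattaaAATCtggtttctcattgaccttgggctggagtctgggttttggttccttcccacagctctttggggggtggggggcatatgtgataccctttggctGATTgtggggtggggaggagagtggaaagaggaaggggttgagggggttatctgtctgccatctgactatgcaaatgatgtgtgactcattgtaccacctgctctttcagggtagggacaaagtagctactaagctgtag
Tlr13, chrX:106143025-106143274, plus strand: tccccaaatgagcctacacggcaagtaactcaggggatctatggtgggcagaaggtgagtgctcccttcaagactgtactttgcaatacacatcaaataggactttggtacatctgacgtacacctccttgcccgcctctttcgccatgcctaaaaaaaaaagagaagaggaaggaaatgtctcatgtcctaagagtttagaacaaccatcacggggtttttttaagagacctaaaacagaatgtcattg
The window of Myd88 held 1 match, which began 67 bases before the start. That of Tlr9 held 2, which began 236 and 140 bases before the start, and that of Tlr13 held 0. Of 32851 windows of the same length over all genes, 69% held AATC on either strand, so a match is common. GGAAGT, the core bound by PU.1 and other ETS factors of myeloid genes, was in 19.7% of all windows on either strand and in 0 of the 3 shown. It occurred once in the window of Tlr2 and once in 1 of the 2 windows of each of Tlr1 and Tlr6.

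Among the surface receptors, Tlr2 recognises bacterial lipoproteins together with Tlr1 or Tlr6. Tlr2 (ENSMUSG00000027995, chr3:83836272-83841824 in GRCm38) had 81.9 and 43.8 CPM in KD replicates 1 and 2, against 52.0 and 22.7 CPM in KI replicates 1 and 2. KD replicate 2 lay below KI replicate 1, so the groups overlapped, and the log2 fold change was 0.76 ± 0.52 (SE; edgeR adjusted p = 0.733). Tlr1 (ENSMUSG00000044827, chr5:64924680-64933600), which pairs with Tlr2 for triacylated lipoproteins, had 17.3 and 16.8 CPM in KD and 12.8 and 6.17 CPM in KI. Both KD libraries were above both KI libraries, and the 2 KI libraries differed more from each other than KI replicate 1 differed from either KD library. The log2 fold change was 0.86 ± 0.48 (edgeR adjusted p = 0.638). Tlr6 (ENSMUSG00000051498, chr5:64953092-64970942), which pairs with Tlr2 for diacylated lipoproteins, had 19.3 and 18.1 CPM in KD and 16.7 and 15.9 CPM in KI. Its 4 libraries lay closer together than those of any other of the 9 genes, without overlap, at a log2 fold change of 0.20 ± 0.33 (edgeR adjusted p = 0.960). Tlr1 and Tlr6 are neighbouring paralogs, and reads that aligned to several places were counted for neither.

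Tlr4, the receptor for bacterial lipopolysaccharide, binds its ligand through the small protein MD-2, the product of Ly96. Tlr4 (ENSMUSG00000039005, chr4:66827551-66846581) had 42.2 and 22.9 CPM in KD replicates 1 and 2, against 37.3 and 2.61 CPM in KI replicates 1 and 2. KI replicate 2 stood far below the other 3 libraries, with 22 counts, while KI replicate 1 lay between the 2 KD libraries. The log2 fold change was 0.73 ± 1.09 (edgeR adjusted p = 0.951). It depended on the KI libraries, being 3.79 without KI replicate 1 (edgeR adjusted p = 0.0365) and -0.109 without KI replicate 2 (edgeR adjusted p = 0.903), where the 1 KI library left is taken to vary as the KD pair did. Ly96 (ENSMUSG00000025779, chr1:16688456-16709605) was near the detection limit, with 39 and 27 counts in KD replicates 1 and 2 and 6 and 3 counts in KI replicates 1 and 2. These correspond to 2.76 and 2.33 CPM in KD, against 1.39 and 0.356 CPM in KI. The groups did not overlap, and the ratio of pooled counts after scaling was 3.63, and the 95% exact binomial interval of counting ran between 1.8 and 8.30. The fitted log2 fold change was 1.62 ± 0.94 (edgeR adjusted p = 0.662). Ly96 moved to 2.94 without KI replicate 1 and to 0.941 without KI replicate 2, with no call in either.

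**Figure D1:**
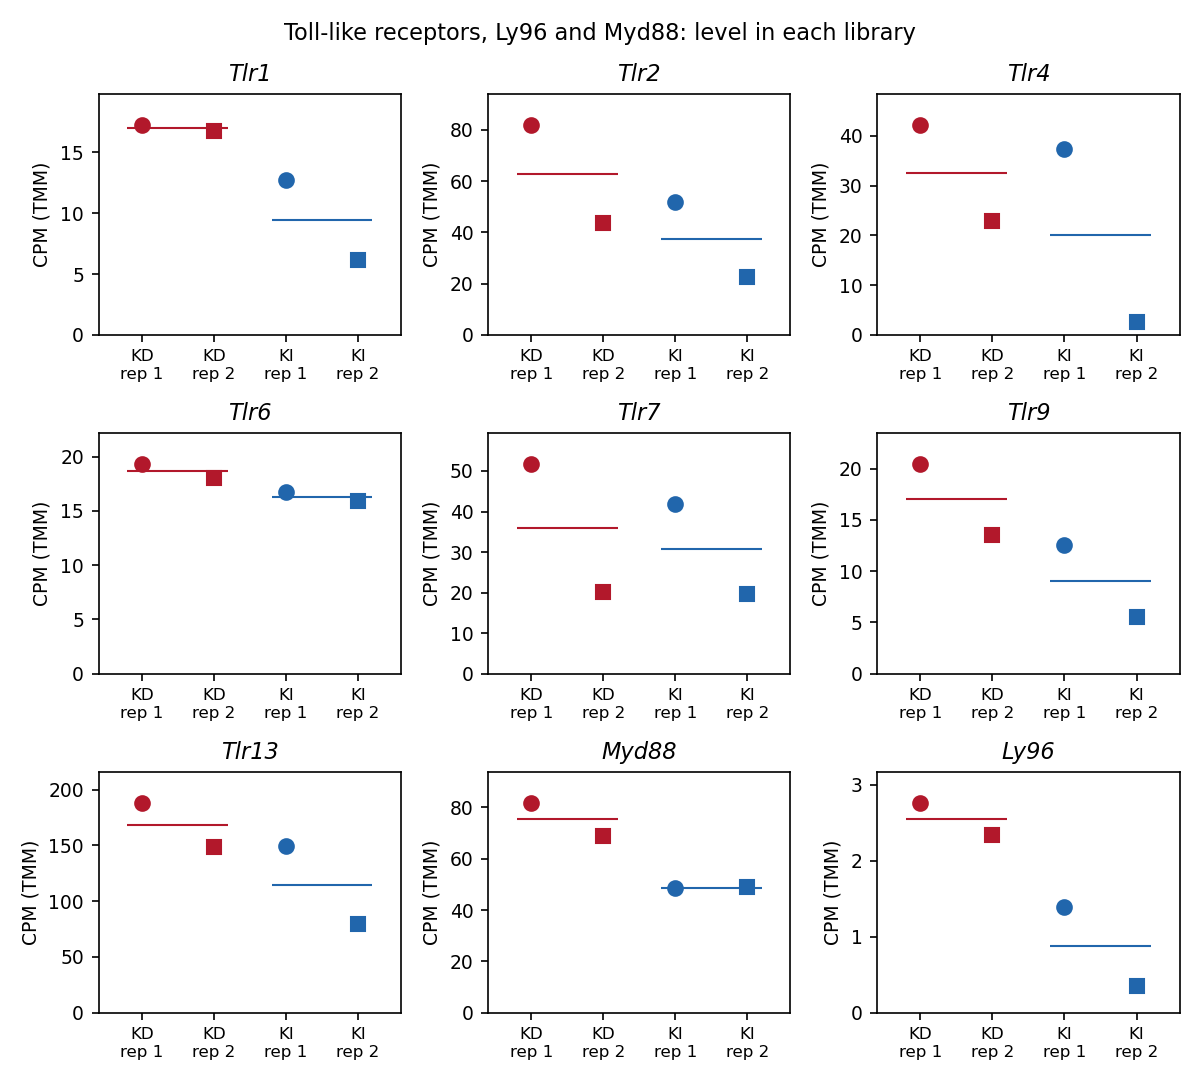
Level of each of the 9 genes in each library, in CPM scaled by TMM on linear axes that start at 0; red points are KD, blue points KI, circles replicate 1, squares replicate 2, and lines the group means (n = 2 mice). KD replicate 1 is the highest library in 9 of 9 panels, KI replicate 2 is the lowest in 8 of 9, and the groups are free of overlap in 5.

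The endosomal receptors sense nucleic acids: Tlr7 single-stranded RNA, Tlr9 unmethylated CpG DNA and Tlr13, present in mice but not in humans, bacterial ribosomal RNA. Tlr9 (ENSMUSG00000045322, chr9:106222598-106226876) had 20.4 and 13.6 CPM in KD replicates 1 and 2, against 12.5 and 5.58 CPM in KI replicates 1 and 2. The groups did not overlap, by a narrow margin between KD replicate 2 and KI replicate 1, and the log2 fold change was 0.93 ± 0.54 (SE; edgeR adjusted p = 0.660). Tlr13 (ENSMUSG00000033777, chrX:106143275-106160493) had 188 and 149 CPM in KD and 150 and 79.6 CPM in KI. KD replicate 2 and KI replicate 1 were level, KI replicate 2 was the low library, and the log2 fold change was 0.56 ± 0.39 (edgeR adjusted p = 0.741). Tlr7 (ENSMUSG00000044583, chrX:167303380-167330574) had 51.7 and 20.0 CPM in KD and 41.7 and 19.6 CPM in KI. Its libraries sorted by replicate number and not by genotype, and the log2 fold change was 0.24 ± 0.59 (edgeR adjusted p = 0.983). Tlr7 was 2.58 times as high in replicate 1 as in replicate 2 in KD (95% exact binomial interval 2.22 to 3.0) and 2.13 times in KI (1.72 to 2.65). With KD replicate 1 left out its fold change was -0.608, and with KI replicate 2 left out it was -0.119. Tlr7 and Tlr13 lie on the X chromosome, and the part of sex in these values was not tested.

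Myd88, the shared adaptor, was the member with the smallest spread relative to its difference. Myd88 (ENSMUSG00000032508, chr9:119335934-119340018) had 81.7 and 69.0 CPM in KD replicates 1 and 2, against 48.5 and 49.0 CPM in KI replicates 1 and 2. The 2 KI libraries were nearly equal and both KD libraries lay above them, at a log2 fold change of 0.63 ± 0.27 (SE). In the edgeR fit over all genes this gave the lowest adjusted p of the 9, at 0.534. Its fold change stayed between 0.49 and 1.05 over 16 alternative settings.

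Beyond genotype, the receptors shared an order of the libraries. KD replicate 1 was the highest library in 9 of 9 genes, beside 15.5% of all genes tested, and KI replicate 2 was the lowest in 8 of 9, beside 23.2%, with Myd88 the exception. Both held at once in 8 of 9 genes, beside 9.39% of all genes. Replicate 1 lay above replicate 2 within both genotypes in 8 of 9 genes, beside 27.7% of all genes, and again Myd88 was the exception, in KI. For 3 of these 8 genes an interval of that ratio reached 1. They were Tlr6 in both genotypes, at 1.07 (0.890 to 1.29) in KD and 1.05 (0.778 to 1.41) in KI, Tlr1 in KD, at 1.03 (0.850 to 1.25), and Ly96 in both, at 1.18 (0.706 to 2.01) in KD and 3.91 (0.835 to 24.2) in KI. Summed over the 9 genes the level was 505 and 355 CPM in KD replicates 1 and 2, against 373 and 201 CPM in KI replicates 1 and 2. KD replicate 2 and KI replicate 1 thus lay side by side, and KD replicate 2 was the higher of the 2 in 5 of 9 genes, beside 7031 of 13822 genes tested.

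Within the libraries numbered 1, the KD level was above the KI level in 9 of 9 genes, with a median ratio of 1.35, and the 95% exact binomial interval lay above 1 in 6 of 9. Over all genes tested, 50.1% were above, the median ratio was 1 and 28.1% had such an interval. Within the libraries numbered 2 it was above in 9 of 9, with a median ratio of 1.93 and intervals above 1 in 7 of 9, beside 45.1%, 0.955 and 24.5% over all genes. Each is a comparison of 2 libraries, and its intervals cover counting error only. Tlr4 differed most between the numbers, at 1.13 (0.947 to 1.35) in libraries numbered 1 and 8.77 (5.67 to 14.2) in libraries numbered 2. Tlr6 was the least different, at 1.16 (0.889 to 1.52) and 1.14 (0.910 to 1.42). Myd88 was at 1.69 (1.45 to 1.96) and 1.41 (1.25 to 1.59).

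**Figure D2:**
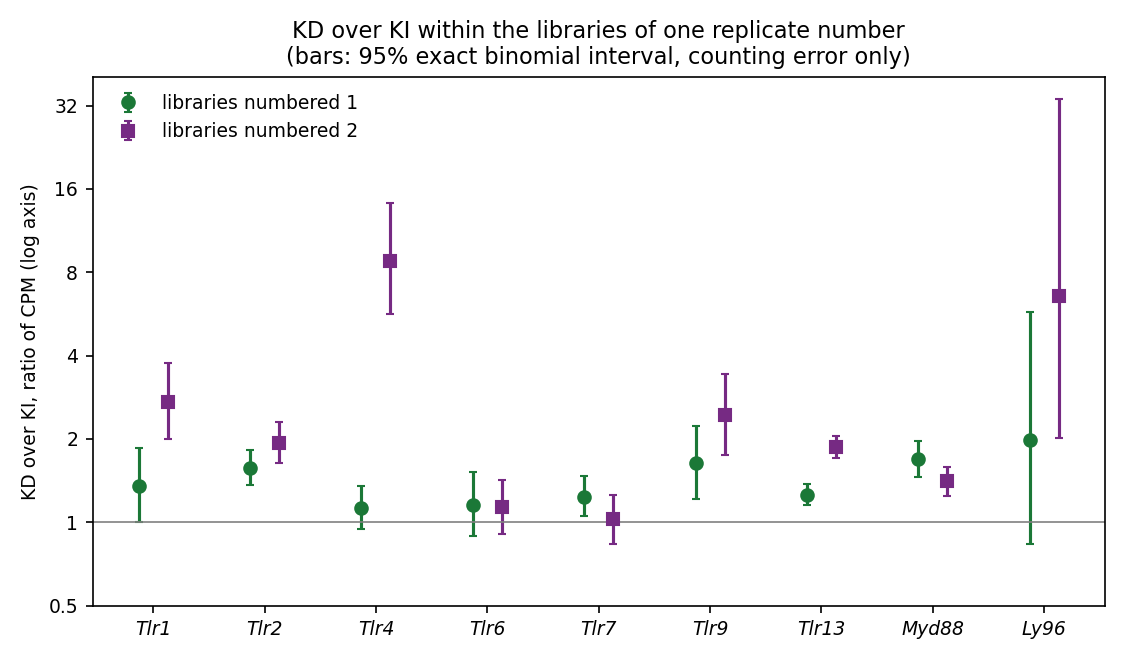
Ratio of the KD library to the KI library with the same replicate number, on a log axis, for each of the 9 genes; circles are libraries numbered 1, squares libraries numbered 2, and bars 95% exact binomial intervals that cover counting error only. All 18 ratios lie above 1, and the Tlr4 ratio is 1.13 in one number and 8.77 in the other.

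Leaving out 1 library moved most of the fold changes by over 1.5 times, with no call except that of Tlr4 given above. Tlr2 lay at 1.63 without KI replicate 1, 0.364 without KI replicate 2 and 0.236 without KD replicate 1. With KI replicate 1 left out Tlr1 was at 1.60, and with KI replicate 2 left out it was at 0.485. Tlr9 was at 1.76 and 0.524 in these settings, and at 0.594 without KD replicate 1. Tlr13 was at 1.22 when KI replicate 1 was dropped and at 0.246 when KI replicate 2 was dropped.

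**Figure D3:**
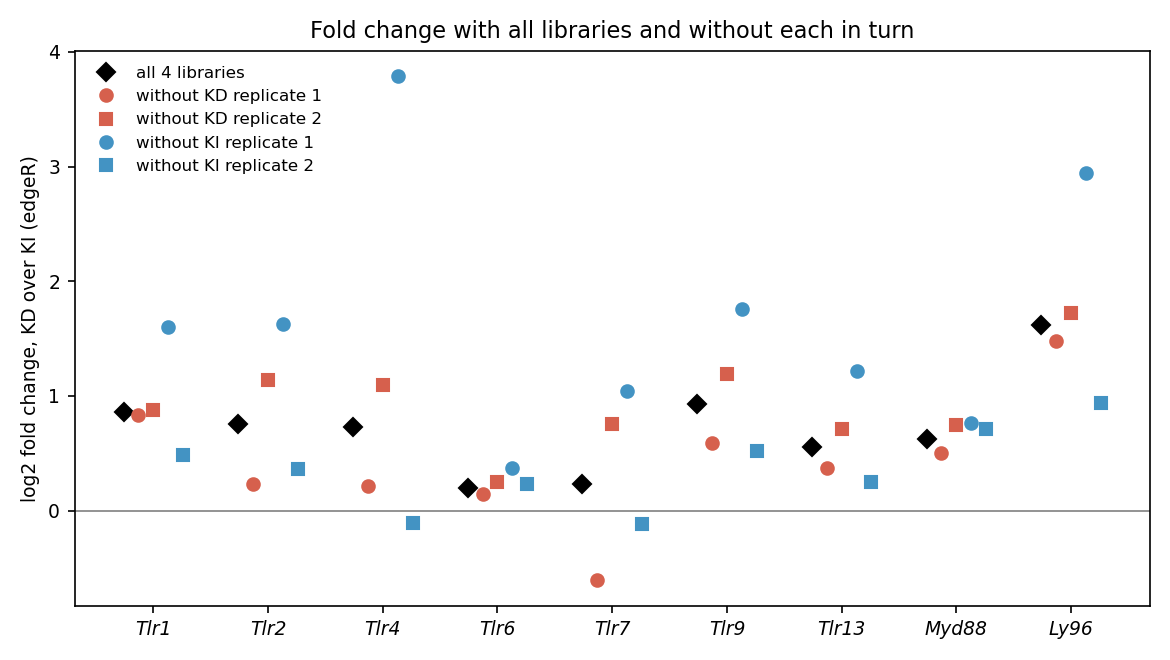
Log2 fold change, KD over KI, of each gene with all 4 libraries (black diamonds) and without each library in turn (red: a KD library left out, blue: a KI library left out; circles replicate 1, squares replicate 2). Tlr4 spans -0.109 to 3.79 and Tlr7 -0.608 to 1.04, while Tlr6 and Myd88 stay close to their values with all libraries.

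Levels of monocyte markers had nearly the same order over the libraries. The sum of 10 monocyte and macrophage markers was 8325 and 7452 CPM in KD replicates 1 and 2, against 7349 and 4003 CPM in KI replicates 1 and 2, and 9 of the 10 had a positive fold change (median 0.68; 0 passed in edgeR). Csf1r, the receptor for macrophage colony-stimulating factor, had 505 and 290 CPM in KD and 254 and 98.8 CPM in KI. Cx3cr1, a chemokine receptor of monocytes, had 123 and 45.4 CPM in KD and 88.6 and 2.37 CPM in KI, with KI replicate 2 again the low library. Neutrophil markers lay the other way, with a summed level of 3378 and 1447 CPM in KD and 15720 and 16390 CPM in KI, and 10 of 10 had a negative fold change (7 called lower by DESeq2, beside 1.01% of all genes, and 0 by edgeR). No listed marker of either type was at 0 in all 4 libraries. Summed dendritic markers were at 186 and 141 CPM in KD and 315 and 121 CPM in KI. Of 7 tested, 6 had a negative fold change and 1 a positive one (median -1.59). Summed B cell markers were at 19.3 and 24.0 CPM in KD and 45.7 and 33.0 CPM in KI, with 4 of 4 tested negative (median -1.45). Neither edgeR nor DESeq2 called any of these dendritic and B cell markers. The part of cell composition in the receptor values was not tested. In such bulk RNA, fewer cells of a type and less RNA per cell cannot be told apart.

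The genes whose levels over the 4 libraries lay closest to each member were found among 10033 genes with at least 5 CPM on average, as the Euclidean distance of centred log2 CPM. Closest to Tlr2 were Hgf (distance 0.121) and Sirpa (0.126). Sirpa, a receptor of myeloid cells that binds CD47, had 645 and 375 CPM in KD replicates 1 and 2, against 395 and 186 CPM in KI replicates 1 and 2. Closest to Tlr4 were Plcb4 (0.110) and Mical2 (0.254), both likewise lowest in KI replicate 2, and closest to Tlr7 were Zfp36 (0.0583) and Apbb1ip (0.0885). Tlr1 was nearest to Bmx (0.0833), Tlr6 to Ankrd13c (0.0248), Tlr9 to Prkag2 (0.0630), Tlr13 to Gpr132 (0.0570), Myd88 to Eif4e3 (0.0248) and Ly96 to Gria3 (0.134). With 4 libraries and this many genes, close matches are to be found for most patterns, so these are descriptions only.

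The rest of the pathway was read from lists of 92 further genes, 76 of which were tested. In edgeR 0 of the 76 passed over all genes. Of 5 other Toll-like receptors, 3 were tested. Tlr8, an endosomal receptor and X-linked neighbour of Tlr7, had 71.1 and 24.1 CPM in KD replicates 1 and 2, against 37.3 and 11.7 CPM in KI replicates 1 and 2 (log2 fold change 0.97 ± 0.73, SE). Like Tlr7, it was higher in replicate 1 in both genotypes, and it lay at -0.0177 without KD replicate 1. Tlr5, the flagellin receptor, lay at 0.75 ± 1.30 with 2 counts in KI replicate 2, and Tlr12 at -0.53 ± 0.97. Tlr3 and Tlr11 had at most 16 counts in any library and were not tested.

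Among co-receptors and chaperones, 7 of 9 tested genes were positive and 2 negative (median 0.71). Cd14, which hands lipopolysaccharide to MD-2 and Tlr4, had 26.3 and 27.6 CPM in KD replicates 1 and 2, against 8.35 and 11.2 CPM in KI replicates 1 and 2. The groups were well apart, at a log2 fold change of 1.46 ± 0.36 (SE; edgeR adjusted p = 0.518, DESeq2 adjusted p = 0.0895). Cd14 lay at 1.41 without KI replicate 1 and at 1.76 without KI replicate 2. Its log2 ratio was 1.65 within the libraries numbered 1 and 1.31 within those numbered 2. Ly86, the MD-1 protein that pairs with Cd180, had 66.5 and 77.2 CPM in KD and 37.6 and 32 CPM in KI (1.05 ± 0.28; edgeR adjusted p = 0.518), with log2 ratios of 0.824 and 1.27 within the libraries numbered 1 and 2. Unlike the receptors, Cd14 and Ly86 were highest in KD replicate 2. Cd36, a scavenger receptor that works with Tlr2, lay the other way at -3.01 ± 0.97, on 2 to 21 counts per library. In edgeR 2 of the 9 had an unadjusted p under 0.05 on the higher side and 1 on the lower, beside 1.29% and 8.34% of all genes. Both KD libraries were above both KI libraries for 5 of the 9, beside 14.5% of all genes, among them Unc93b1, which carries nucleic acid receptors to the endosome (299 and 351 CPM in KD, 207 and 200 CPM in KI).

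Among the proteins below the receptors, list medians lay nearer to 0. Of 4 tested TIR adaptors other than Myd88, 3 were positive and 1 negative (median 0.26). Ticam2, the TRAM adaptor of Tlr4, had 23.6 and 15.8 CPM in KD replicates 1 and 2, against 15.5 and 2.37 CPM in KI replicates 1 and 2, so that KI replicate 2 was its low library as for Tlr4. Its log2 fold change of 1.17 ± 0.85 was 3.20 without KI replicate 1 and 0.424 without KI replicate 2. The log2 ratio of Ticam2 was 0.601 within the libraries numbered 1 and 2.74 within those numbered 2. Ticam1, the TRIF adaptor, lay at 0.31 ± 0.37 and Tirap, which bridges MyD88 to Tlr2 and Tlr4, at -0.34 ± 0.37. Of 19 IRAK, TRAF and TAK1 genes, 12 were positive and 7 negative (median 0.07). Irak4, the first kinase recruited by MyD88, lay at 0.57 ± 0.32 and Tab3, a TAK1 partner, at -0.59 ± 0.37. Peli2, a ubiquitin ligase of the IRAK kinases, lay at -1.64 ± 0.80 and was highest in KI replicate 1 (17.9 CPM, against 2.19 to 5.34 CPM elsewhere). Of 13 inhibitors of the pathway, 9 were positive and 4 negative (median 0.08). Nfkbia, the NF-kB inhibitor and target, had 46.0 and 92.4 CPM in KD and 78.9 and 223 CPM in KI (-1.13 ± 0.60). Its groups overlapped, with KD replicate 2 above KI replicate 1. The fold change of Nfkbia was -1.58 without KI replicate 1 and -0.142 without KI replicate 2. Socs1 lay at -0.99 ± 0.64 and Tnip1 at 0.48 ± 0.33.

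**Figure D4:**
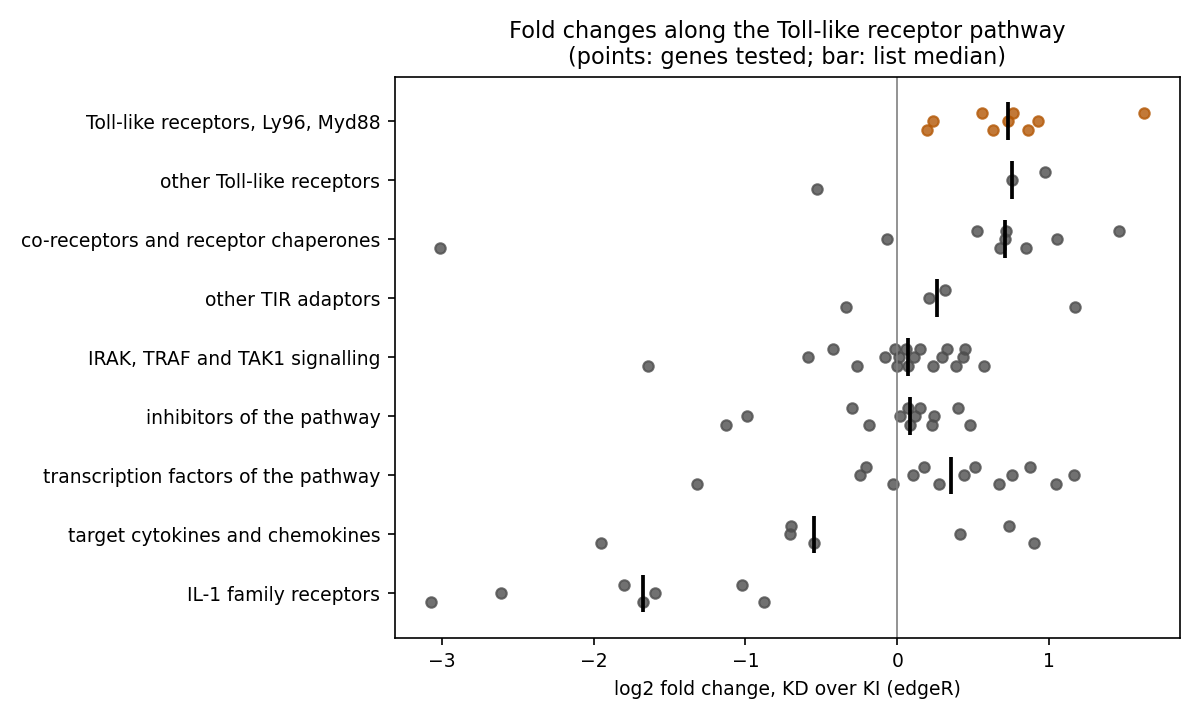
Log2 fold change, KD over KI (edgeR), of each tested gene in the lists of the pathway; points are genes, set apart vertically for sight only, and black bars are list medians. The 9 Toll-like receptor genes, Ly96 and Myd88 included, all lie right of 0 with a median of 0.73, and the 7 receptors of the interleukin 1 family all lie left of it with a median of -1.68.

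Of 14 transcription factors of the pathway, 10 were positive and 4 negative (median 0.35), and 3 had an unadjusted p under 0.05, all higher in KD, beside 1.29% of all genes. Nfkb1, from which the NF-kB protein p50 is cut, had 207 and 197 CPM in KD replicates 1 and 2, against 92.3 and 104 CPM in KI replicates 1 and 2 (log2 fold change 1.04 ± 0.26, SE; edgeR adjusted p = 0.518). Its groups were far apart relative to the spread within each, and its log2 ratios were 1.16 and 0.928 within the libraries numbered 1 and 2. Irf5, an interferon regulatory factor used by MyD88, lay at 0.87 ± 0.35 and Cebpb, a factor of the macrophage response, at 0.75 ± 0.29. Of 19 target cytokines and chemokines only 7 had enough counts to be tested, 3 positive and 4 negative (median -0.55). Il6 had at most 4 counts in any library. Tnf had 8.77 and 7.0 CPM in KD and 10.9 and 14.7 CPM in KI (-0.70 ± 0.43). Ccl9, a chemokine of myeloid cells, lay at 0.73 ± 0.31, and Ccl5 at -1.95 ± 0.87, the latter on 11 to 27 counts per library. Ccl5 lay at -0.943 without KI replicate 1 and at -2.48 without KI replicate 2.

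Receptors of the interleukin 1 family lay on the other side of 0. Most of them signal through MyD88, but Il1r2, also on the list, is a decoy receptor that does not signal. Of the 7, 7 were negative, with a median of -1.68, and both KD libraries lay below both KI libraries in 6, beside 23.5% of all genes. In edgeR 4 of the 7 had an unadjusted p under 0.05, all lower in KD, beside 8.34% of all genes. Il18rap, the accessory chain of the interleukin 18 receptor, had 41.0 and 49.1 CPM in KD replicates 1 and 2, against 117 and 171 CPM in KI replicates 1 and 2 (log2 fold change -1.68 ± 0.32, SE). Il1rl1, the interleukin 33 receptor, had 2.34 and 1.73 CPM in KD and 23.0 and 11.6 CPM in KI (-3.07 ± 0.57). The 2 genes were called lower by DESeq2 (adjusted p = 0.00762 for Il18rap and 0.0028 for Il1rl1), beside 1.01% of all genes. They were not called by edgeR with all 4 libraries (adjusted p = 0.518 for each). Il18r1 lay at -2.61 ± 0.79, called by neither. In edgeR with a library left out, Il18rap lay at -1.79 without KI replicate 1 and at -1.32 without KI replicate 2. Il1rl1 lay at -2.36 and -3.41 in these settings, and Il18r1 at -1.30 and -3.16. Within the libraries numbered 1 and 2 the log2 ratios were -1.51 and -1.80 for Il18rap, -3.30 and -2.75 for Il1rl1 and -2.82 and -2.11 for Il18r1. Beside these values, markers of other cell types were also lower in KD in summed level. Neutrophil markers are given above. Erythroid markers were at 108 and 36.1 CPM in KD and 418 and 423 CPM in KI, with 9 of 9 negative and a median of -3.42. Of these 9, 3 were called lower by DESeq2, beside 1.01% of all genes, and 0 by edgeR. T cell markers were at 9.20 and 10.9 CPM in KD and 53.6 and 53.6 CPM in KI, with 7 of 7 tested negative. Of these 7, 1 (Cd3e) was called lower by DESeq2 (adjusted p = 0.000876) and 0 by edgeR. Most of the T cell sum in KI replicate 2 was Cd3e, at 37.3 CPM, while Cd8a (1.54 CPM) and Lck (1.90 CPM) were near their KD levels there. Cd3g and Cd5 lay above theirs. Cd3g had 5.93 CPM in KI replicate 2, against 1.42 and 1.73 CPM in KD replicates 1 and 2. Cd5 had 4.15 CPM there, against 0.637 and 1.12 CPM in KD. The part of these cell types in the interleukin receptor values was not tested.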

How the data were processed

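RNA was measured in 4 libraries of leukaemic cells, 2 per genotype (TruSeq Stranded mRNA, per the labels' protocols). The deposited values are raw counts per gene. The submitters' processing notes name TopHat2 2.0.10, SAMtools, HTSeq, DESeq and GRCm38. The sources used here do not give the strand setting, annotation release or filters. Xist had 9795 and 6613 counts in KD and KI replicate 2 against 10 and 10 for its antisense gene Tsix, so reads were counted on the sense strand. Rows naming no gene held 93.2% to 97.9% of the totals and were left out. Of 41214 gene IDs, 40254 had a symbol.

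Genes were kept with filterByExpr of edgeR 4.0.16 (R 4.3.3), scaled by TMM and tested with glmQLFit and glmQLFTest, Benjamini-Hochberg at 0.05 over 13822 genes. Fold changes are log2, KD over KI. Intervals cover counting error only. Alternatives were other scalings and filters, DESeq2 1.42.0, limma-voom (limma 3.58.1), a robust prior, a replicate block, and leaving out each library or each locus above 1% of a library. Leave-one-out fits kept the same genes. Comparisons within a replicate number were added after the data were seen. The members, lists and tests were chosen with earlier results of these data known. From each list the 3 tested genes with the lowest p are named, and for each member the nearest genes. Genes outside this rule (Unc93b1, Il1r2, Il6, Csf1r, Cx3cr1, Cd3e, Cd3g, Cd5, Cd8a, Lck) were chosen after their values were seen. The 8 chromatin libraries are not analysed here: 1616 columns of their tables name no sample.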

Additional observations from a re-analysis of the deposited data

How the results depend on the processing

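With all 4 libraries, all 9 members had a positive fold change under each scaling (RLE, upper quartile, library size only, without loci above 1% of a library), in DESeq2, limma-voom, the robust prior and the replicate block, and 8 of 8 at 5 CPM or more. The median over all genes was -0.064 with TMM and 0.368 with library size only, and the share of higher among genes at an unadjusted p under 0.05 was 13.4% with TMM, 77.2% with library size only, 25.1% without the loci above 1%, 26.3% in limma-voom and 37.8% with the replicate block. Calls over all genes numbered 29 higher and 140 lower without a low-count filter, 5 and 139 in DESeq2, and 0 and 7 with the replicate block, which called 0 of the 9 members. The replicate numbers are shared by 2 pairs only, and deviations from the group means correlated at 0.235, so the pairing is not established. Without each library in turn, 3 to 149 genes were called higher and 29 to 774 lower, 0 to 1 of the members was called (Tlr4), and the members' median lay between 0.364 and 1.60. Single genes then ranged, on the log2 scale, over -0.109 to 3.79 for Tlr4, -0.608 to 1.04 for Tlr7, -0.0177 to 2.19 for Tlr8, -0.149 to 4.4 for Tlr5, -1.46 to 0.831 for Tlr12 and -0.615 to 0.241 for Tirap. Tirap lay at 0.0437 with library size only. Within the libraries numbered 2, Tlr12 lay at 1.30 and Tirap at 0.0632. The cause of these shifts was not tested. Il1rl1 was called by edgeR without a low-count filter (-2.81, adjusted p = 0.031). The depth of KI replicate 1 and the low counts of Ly96 limit precision, as does the gap between the 2 KI libraries for Tlr4.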

Other observations

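Ddx3y was the Y-linked gene that did not follow the others. It had 1.27 and 0.0864 CPM in KD replicates 1 and 2, against 77.5 and 0.237 CPM in KI replicates 1 and 2. Kdm5d, by comparison, had 48.0 and 0.259 CPM in KD and 48.2 and 0.712 CPM in KI, and Uty had 29.9 and 0 CPM in KD and 46.2 and 0 CPM in KI. KD replicate 1 thus held Kdm5d RNA at a level near that of KI replicate 1 but little Ddx3y.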
